A study of Mus musculus with 8 samples.

Results

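The mitochondrial carriers of the *Slc25* family were compared between mutant and wild-type brain endothelial cells (ECs). Members were taken by symbol, as every gene of the deposited normalized data named *Slc25a* followed by a number, which gave 42 of 16889 genes. In the count files 47 genes carried such a symbol. The other 5 had too few reads to enter the normalized data, with 21 counts in total over the 8 libraries for *Slc25a21*, 10 for *Slc25a31*, 5 for *Slc25a54*, 1 for *Slc25a41* and 0 for *Slc25a48*.

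The mutant libraries came from 4 R26 GT-Map2k1-GFP/+; Tg-Cdh5CreER +/- pups and the control libraries from 4 pups labelled wild type, with 1 library per pup. All pups received tamoxifen at P1, and brain ECs were collected at P9 with beads against the surface protein CD31. Tamoxifen activates the CreER recombinase, which is driven by the promoter of the endothelial gene *Cdh5*, and recombination of the *Rosa* locus switches on MAP2K1 (p.K57N), a constitutively active kinase of the RAS/MAPK pathway. Recombination reached only part of the ECs, so each mutant library mixed recombined and unrecombined cells, and no line expressing normal MAP2K1 from the same locus was compared. Both strains were kept by backcrossing to C57BL/6J.

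Slc25 proteins sit in the inner mitochondrial membrane and exchange solutes such as ADP and ATP, phosphate, amino acids, citrate, acylcarnitines, iron and cofactors between the cytosol and the matrix. Each consists of repeated pairs of membrane-spanning helices around a single substrate site, and the proteins reach the membrane through the TIM22 import complex. ECs draw much of their ATP from glycolysis, and their mitochondria are known mainly for biosynthesis, redox balance and signaling. The family name does not fix the location, since the *Slc25a17* product is peroxisomal and that of *Slc25a46* lies in the outer mitochondrial membrane.

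The libraries held 24833373 to 34196955 counts on genes. Levels are given as CPM, which is counts scaled to a common library total. *Map2k1*, whose mutant cDNA was placed at the *Rosa* locus, averaged 493 ± 96.1 (SD) CPM in the 4 mutant and 54.3 ± 3.91 in the 4 wild-type libraries. The labels and the transgene thus matched. The 11 endothelial markers summed to 12619 to 15271 CPM in mutant and 11865 to 14340 CPM in wild-type libraries, and 3 rose and 3 fell. Markers of several other cells were lower in the mutant libraries. They included 8 of 8 oligodendrocyte lineage markers (summed CPM 35.2 to 68.6 against 108 to 293). Of the red blood cell markers 7 of 10 fell (92.0 to 289 against 537 to 931). Of the neuronal markers 6 of 9 tested fell, and all 11 summed to 22.7 to 34.3 against 39.8 to 82.3 CPM. *Rbfox3* alone among the neuronal markers was higher, without passing (9.91 ± 2.27 against 4.33 ± 3.21 CPM, adjusted p = 0.0514). The 9 astrocyte markers summed higher in the mutant libraries (635 to 758 against 425 to 493 CPM), although 3 fell and 1 rose. *Gja1*, which rose, carried that sum, and without it the other 8 summed to 27.0 to 67.2 CPM in mutant and 68.9 to 93.9 CPM in wild-type libraries. Of the pericyte and smooth muscle markers 3 of 9 rose, and of the fibroblast markers 2 of 5 rose and 1 fell. The summed CPM of the groups overlapped for both lists. It was 671 to 1136 in mutant against 647 to 1199 in wild-type libraries for pericytes and smooth muscle. For fibroblasts it was 1054 to 1366 against 919 to 1226. The 8 microglial markers summed to 110 to 431 CPM in mutant and 113 to 477 CPM in wild-type libraries. No marker on these lists was at 0 in every library. The part of these other cells in the carrier results was not tested. In bulk RNA, fewer cells of a type and less RNA per cell cannot be told apart.

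Promoters of 3 carriers are shown, for the most abundant carrier that rose (*Slc25a5*), the carrier with the lowest adjusted p (*Slc25a13*) and a carrier that fell about as far as the fold limit used here (*Slc25a42*). Each is the 250 bases before the RefSeq gene start on GRCm38.p6, written 5′ to 3′ on the strand of the gene, at chrX:36795347-36795596 (plus strand), chr6:6217174-6217423 (minus strand) and chr8:70212282-70212531 (minus strand). The last bases of the *Slc25a42* window lie inside that gene as the count files place it. The *Slc25a5* window ends at 36795596, while the count files start that gene at 36795651, and the bases between were not searched. Capitals mark matches, on either strand, to CCAAT (the CCAAT box), CACGTG (the E-box bound by MYC and related factors) and TGANTCA (AP-1, the FOS and JUN factors).
Slc25a5: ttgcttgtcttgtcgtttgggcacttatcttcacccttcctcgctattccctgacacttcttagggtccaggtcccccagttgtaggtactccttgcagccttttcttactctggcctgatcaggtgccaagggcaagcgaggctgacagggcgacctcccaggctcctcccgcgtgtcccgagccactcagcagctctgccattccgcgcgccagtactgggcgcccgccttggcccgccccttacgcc
Slc25a13: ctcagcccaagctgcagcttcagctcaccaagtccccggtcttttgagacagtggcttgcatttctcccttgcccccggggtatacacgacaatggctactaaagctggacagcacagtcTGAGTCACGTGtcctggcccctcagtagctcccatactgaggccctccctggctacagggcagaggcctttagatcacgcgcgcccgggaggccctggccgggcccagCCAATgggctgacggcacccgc
Slc25a42: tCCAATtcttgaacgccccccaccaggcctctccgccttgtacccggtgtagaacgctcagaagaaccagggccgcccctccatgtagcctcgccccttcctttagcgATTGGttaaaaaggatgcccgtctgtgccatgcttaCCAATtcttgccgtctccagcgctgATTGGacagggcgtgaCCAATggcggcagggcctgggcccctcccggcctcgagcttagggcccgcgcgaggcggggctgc
In the *Slc25a13* window the AP-1 match began 130 bases and the E-box 125 bases before the start, sharing bases, and a CCAAT box began at 22. The *Slc25a42* window held CCAAT boxes at 249, 142, 106, 81 and 65 bases, and the *Slc25a5* window held none of these letters. RefSeq promoters matched 32 of the 42 carriers. A CCAAT box occurred in 17 of them (53.1%) against 37.5% of all genes with such windows, an E-box in 6 (18.8%) against 6.86%, the ETS core CCGGAA in 9 (28.1%) against 13.6%, and AP-1 in 2 (6.25%) against 7.82%. A gene counted once if any of its windows held the letters. All carriers had enough reads to be tested here, but the 27025 genes behind these shares were not limited to such genes. The shares are therefore not like for like, and their difference was not tested. CACGTG occurred in 1 of the 9 carriers that rose and in 3 of the 9 that fell and had a promoter, so matches were found on both sides. These matches describe letters and not bound sites. The carrier windows also held more G and C, with a median of 57.6% against 52.4%.

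Carrier levels spanned a wide range in brain ECs. TPM is counts divided by exon length and then scaled to the same total in each library. Averaged over the 8 libraries, the most abundant per length were *Slc25a5* (620 TPM), *Slc25a3* (350 TPM) and *Slc25a4* (263 TPM). *Slc25a5* and *Slc25a4* encode adenine nucleotide translocases that exchange cytosolic ADP for matrix ATP. *Slc25a3* encodes the phosphate carrier that supplies ATP synthase. *Slc25a25*, a calcium-regulated ATP-Mg/phosphate carrier, followed at 114 TPM. Of the remainder, 21 carriers lay between 10 and 100 TPM and 17 below 10 TPM, down to 1.04 TPM for *Slc25a2*. In wild-type ECs *Slc25a5* (508 ± 13.4 TPM, SD, n = 4), *Slc25a3* (313 ± 13.8 TPM) and *Slc25a4* (229 ± 11.7 TPM) were separated by more than their spread. The next neighbors in wild-type ECs below *Slc25a25*, the citrate carrier *Slc25a1* (92.5 ± 14.5 TPM) and the glutathione carrier *Slc25a39* (91.5 ± 12.4 TPM), did not differ beyond theirs. The length used is the sum of all annotated exons, which can lower the TPM of a gene such as *Slc25a3* where little-used exons are annotated.

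**Figure D1:**
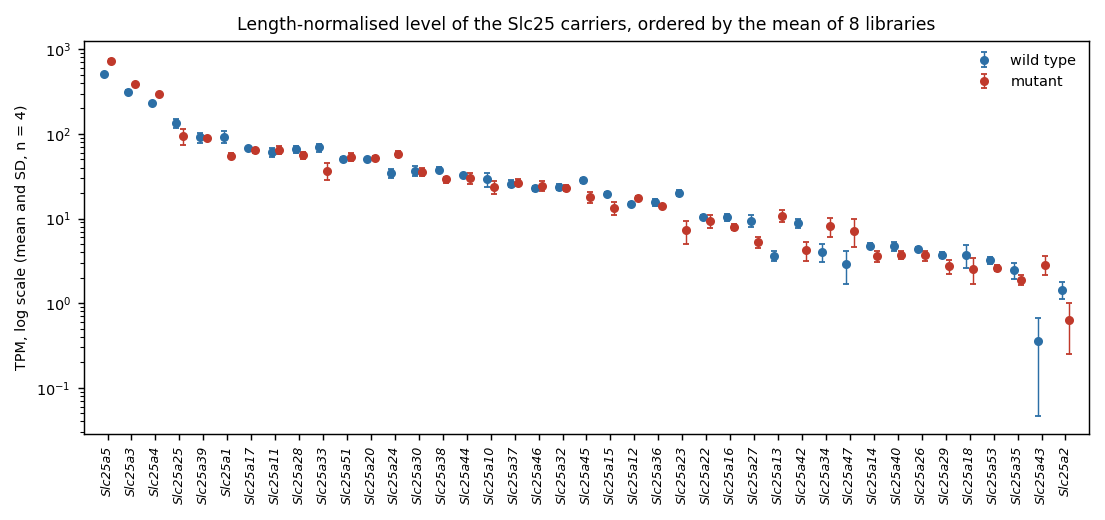
Level of 41 carriers in TPM on a log axis, with the mean and SD of the 4 mutant and 4 wild-type libraries. *Slc25a5*, *Slc25a3* and *Slc25a4* stand above the other carriers in both groups, at 733, 387 and 298 TPM in mutant and 508, 313 and 229 TPM in wild-type ECs.

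Carriers changed in both directions in mutant ECs. With edgeR's quasi-likelihood test and Benjamini-Hochberg adjustment over 16887 genes, all 42 carriers were tested, and at an adjusted p under 0.05, 9 rose (21.4%), 11 fell (26.2%) and 22 did not pass. Of all genes tested, 21.5% rose and 22.9% fell, so the carriers' shares lay near the background. Past an absolute log2 fold change of 1 as well, 4 carriers rose (*Slc25a13*, *Slc25a34*, *Slc25a43* and *Slc25a47*) and 2 fell (*Slc25a23* and *Slc25a42*), beside 5.90% and 8.05% of all genes. The groups were fully apart for 22 of the 42 carriers, beside 42.5% of all genes. In 9 the mutants lay above, beside 20.6% of all genes, and in 13 below, beside 21.9%. The median log2 fold change was -0.13 for the carriers and -0.02 for all genes, and the median absolute value was 0.34 and 0.37.

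Of the 22 carriers that did not pass, 14 had an absolute log2 fold change under 0.2, and 14 were negative and 8 positive. *Xist*, the RNA of the inactive X chromosome, had 28100 to 33829 counts in Mutant 4, Wild type 2 and Wild type 3 and 149 to 212 in the other 5 libraries, so both sexes were present and not evenly divided. Wild-type pups had been chosen to match the number of mutants in each litter, but the labels do not state which pups shared one. The library labels carry 3 prefixes, each with as many mutant as wild-type libraries. With the prefix as a block, 9 carriers rose and 12 fell, since *Slc25a2* then passed.

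**Figure D2:**
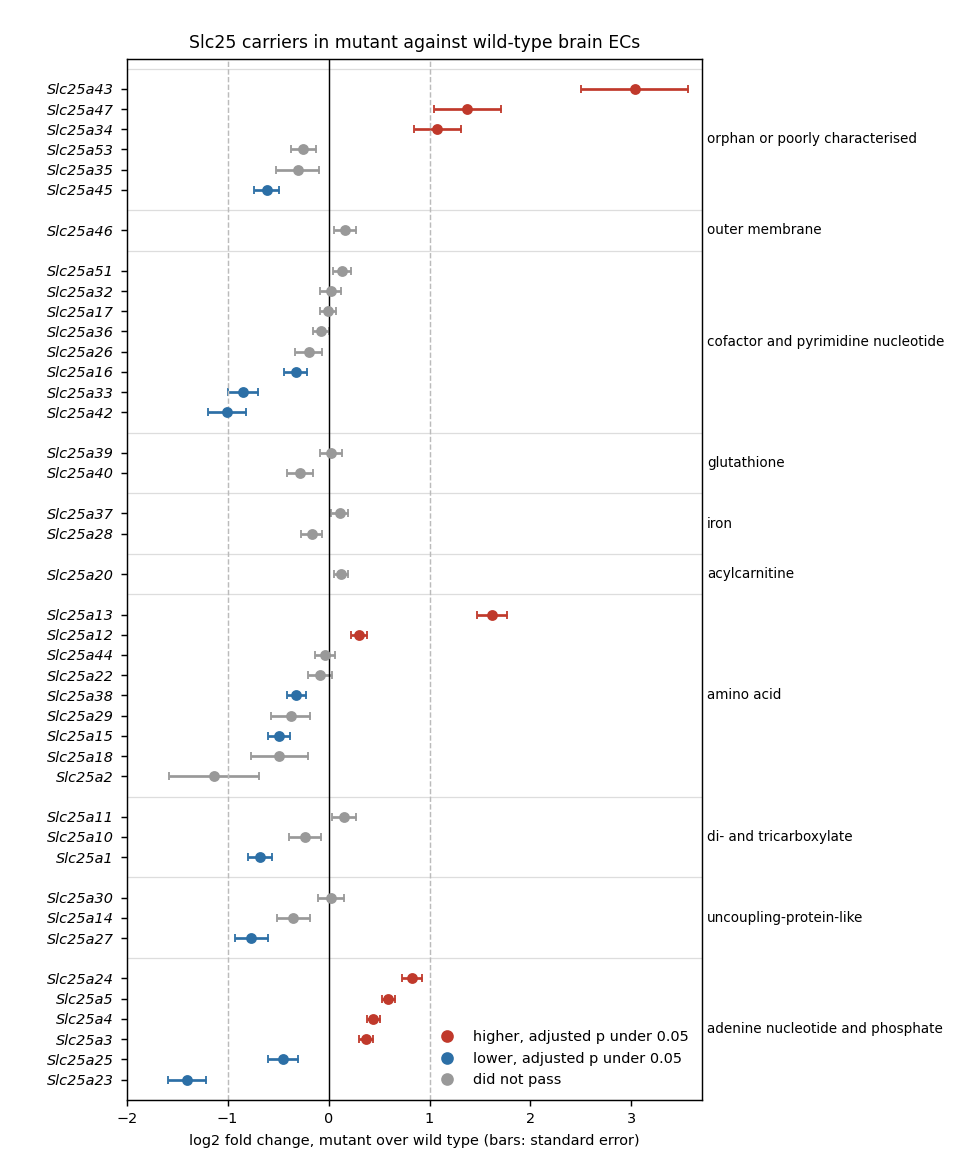
Log2 fold change (mutant over wild type) of 41 carriers grouped by role, with bars of 1 SE from edgeR, dashed lines at a log2 fold change of 1 either way and color marking an adjusted p under 0.05. The 3 abundant ATP and phosphate carriers sit between 0.37 and 0.59, no cofactor or pyrimidine nucleotide carrier rose, and *Slc25a43* reaches 3.03.

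The carriers of adenine nucleotides and phosphate moved in both directions, and all 6 passed the test, beside 44.4% of all genes in either direction. Whether this share differs from that of other genes was not tested. *Slc25a5*, the translocase of proliferating cells, had 319, 328, 338 and 351 CPM in mutant libraries 1 to 4 and 217, 225, 217 and 227 CPM in wild-type libraries 1 to 4. Every mutant library lay above every wild-type library, and the fold was 1.51 (log2 fold change 0.59, SE 0.06, adjusted p = 5.85e-05). *Slc25a5* lies at chrX:36795651-36798807, and among the 5 libraries with low *Xist* it had 319 to 338 CPM in the mutants and 217 and 227 CPM in the wild types. Its processed pseudogene *Slc25a5-ps* held 22 counts in total against 65254 on *Slc25a5*.

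*Slc25a4*, the translocase of heart and muscle, had 197, 187, 193 and 200 CPM in the mutant and 153, 148, 134 and 136 CPM in the wild-type libraries, again with no overlap. It rose 1.36-fold (log2 fold change 0.44, SE 0.07, adjusted p = 0.000506). The ratio of *Slc25a4* to *Slc25a5* TPM was 0.407 ± 0.0158 in mutant and 0.452 ± 0.0332 in wild-type ECs (SD, n = 4 each, exact permutation p = 0.0571, two-sided). *Slc25a3* had 645, 574, 571 and 593 CPM in the mutant and 450, 450, 458 and 484 CPM in the wild-type libraries. Mutant 1 was the highest, the groups were apart, and *Slc25a3* rose 1.29-fold (log2 fold change 0.37, SE 0.07, adjusted p = 0.00172).

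The 3 ATP-Mg/phosphate carriers, which set the size of the matrix adenine nucleotide pool in response to calcium, split. *Slc25a24* had 52.1, 60.2, 53.1 and 55.1 CPM in the mutant and 35.8, 33.3, 27.7 and 27.4 CPM in the wild-type libraries, all mutants above, and rose 1.78-fold (log2 fold change 0.83, SE 0.10, adjusted p = 0.000126). *Slc25a23* had 9.09, 13.0, 13.3 and 6.95 CPM in the mutant and 28.8, 30.4, 27.4 and 25.3 CPM in the wild-type libraries. No mutant library reached the level of any wild type, and *Slc25a23* was 2.65-fold lower (log2 fold change -1.41, SE 0.19, adjusted p = 0.000217). *Slc25a25* had 206, 234, 233 and 146 CPM in the mutant and 306, 318, 259 and 238 CPM in the wild-type libraries. Its highest mutants came close to its lowest wild type, and it was 1.37-fold lower (log2 fold change -0.45, SE 0.15, adjusted p = 0.033). That call was lost without Mutant 1 (adjusted p = 0.0770), Mutant 4 (0.0595), Wild type 1 (0.100) or Wild type 2 (0.0899). Per length, *Slc25a25* exceeded *Slc25a24* 1.63 ± 0.326 times in mutant and 3.94 ± 0.220 times in wild-type ECs (exact permutation p = 0.0286, the smallest that 4 against 4 can give). Because *Slc25a24* lay fully above and *Slc25a25* fully below in the mutants, the ratio had to separate, and its p adds nothing to their own tests.

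**Figure D3:**
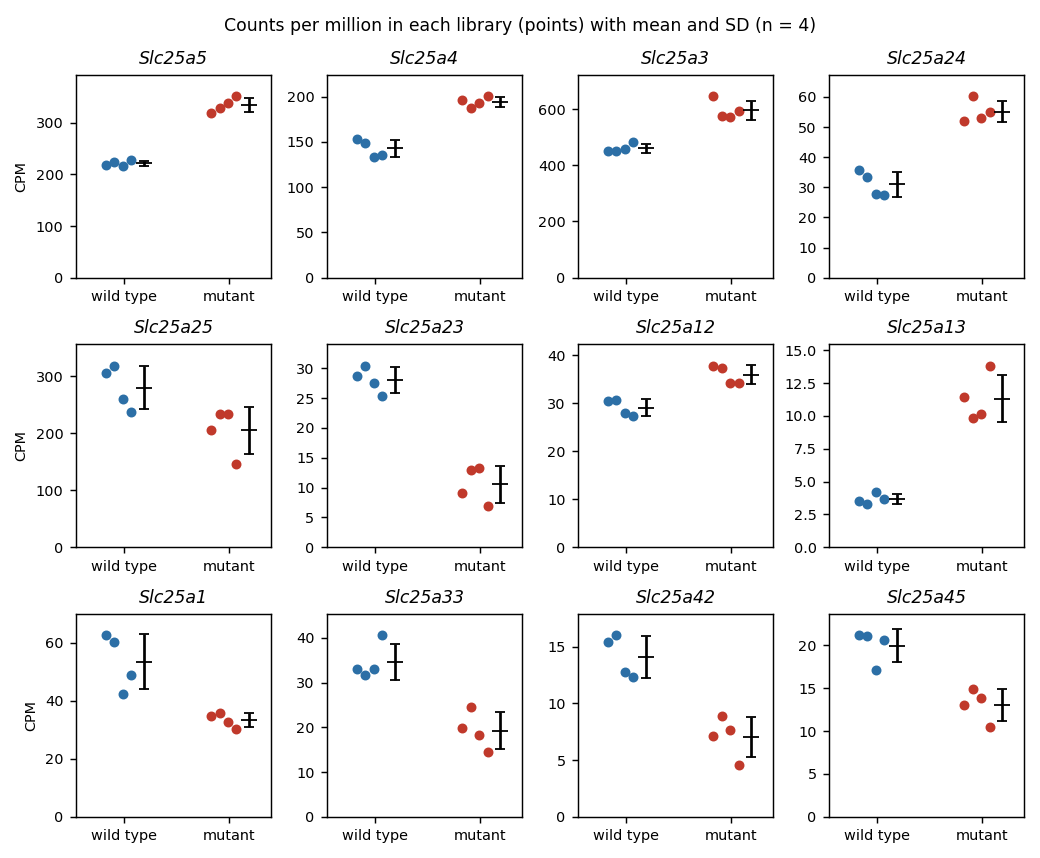
CPM of 12 carriers in each of the 4 mutant and 4 wild-type libraries, with the mean and SD beside the points and an axis from 0 in each panel. In *Slc25a5* all 4 mutant libraries lie at 319 CPM or more and all wild types at 227 CPM or less, and in *Slc25a23* the order is the opposite, with mutants at 13.3 CPM or less and wild types at 25.3 CPM or more.

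The 3 abundant carriers made up a large part of the family total. Summed over the 42 carriers, mutant libraries held 2144 ± 37.3 CPM (range 2096 to 2184) and wild-type libraries 1958 ± 71.4 CPM (range 1862 to 2018), a difference of 186 CPM. *Slc25a3*, *Slc25a4* and *Slc25a5* together differed by 299 CPM. The other 39 carriers summed to 1020 ± 50.0 CPM in mutant and 1132 ± 68.7 CPM in wild-type libraries, with ranges that overlapped (951 to 1070 against 1053 to 1195 CPM). The 3 abundant carriers made up 59.4% of the summed carrier TPM in mutant and 48.5% in wild-type ECs.

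Among the 9 amino acid carriers, 2 rose and 2 fell, beside 21.5% and 22.9% of all genes. Both that rose exchange mitochondrial aspartate for cytosolic glutamate in the malate-aspartate shuttle. *Slc25a13* (citrin), at chr6:6041218-6217173, had 11.4, 9.84, 10.2 and 13.8 CPM in the mutant and 3.51, 3.32, 4.19 and 3.66 CPM in the wild-type libraries. The lowest mutant lay far above the highest wild type, and the fold was 3.08 (log2 fold change 1.62, SE 0.15, adjusted p = 2.45e-05). *Slc25a12* (aralar), its paralog, had 37.8, 37.4, 34.2 and 34.3 CPM in the mutant and 30.5, 30.7, 28.0 and 27.3 CPM in the wild-type libraries, also apart, and rose 1.23-fold (log2 fold change 0.30, SE 0.08, adjusted p = 0.00832). *Slc25a12* therefore exceeded *Slc25a13* in TPM 4.15 ± 0.600 times in wild-type but 1.68 ± 0.286 times in mutant ECs (exact permutation p = 0.0286). The ranges of both carriers already fixed this separation, so its p adds nothing to their own tests.

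*Slc25a15*, the ornithine carrier of the urea cycle, was 1.40-fold lower (20.7 ± 3.02 against 29.1 ± 1.71 CPM, log2 fold change -0.49, SE 0.11, adjusted p = 0.0045). *Slc25a38*, a glycine importer that feeds heme synthesis and is best known in red cell precursors, was 1.25-fold lower (22.0 ± 1.54 against 27.5 ± 2.54 CPM, adjusted p = 0.0175), and its call was lost without Mutant 1 (adjusted p = 0.0580), Mutant 4 (0.0555), Wild type 1 (0.0633) or Wild type 2 (0.0564). Red blood cell markers were lower in the same mutant libraries, as given above, and their part was not tested. *Slc25a2*, a second ornithine carrier, had 7, 11, 2 and 6 counts in the mutant and 22, 13, 15 and 16 in the wild-type libraries (log2 fold change -1.13, adjusted p = 0.0593). With the label prefix as a block *Slc25a2* passed (log2 fold change -1.19, adjusted p = 0.0375). The carriers for glutamate (*Slc25a18* and *Slc25a22*), basic amino acids (*Slc25a29*) and branched-chain amino acids (*Slc25a44*) had log2 fold changes of -0.49, -0.08, -0.38 and -0.03 and did not pass (adjusted p = 0.189, 0.602, 0.133 and 0.805).

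**Figure D4:**
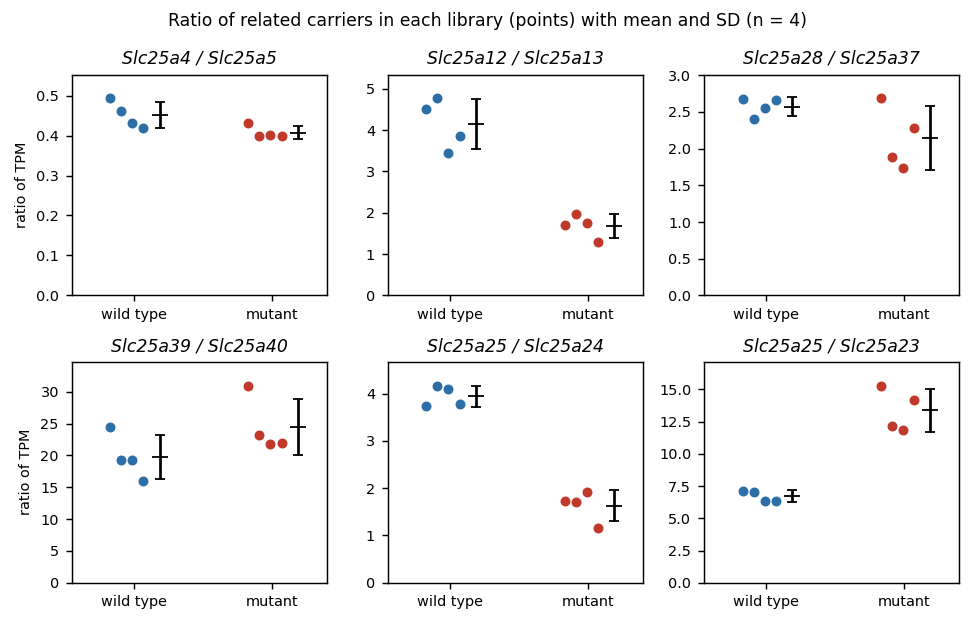
Ratio of the TPM of paired carriers in each library, for 6 pairs, with the mean and SD of the 4 libraries of each group beside the points. The *Slc25a12* to *Slc25a13* ratio is 4.15 in wild-type and 1.68 in mutant ECs, that of *Slc25a25* to *Slc25a24* is 3.94 and 1.63, and that of *Slc25a25* to *Slc25a23* is 13.4 in mutant and 6.72 in wild-type ECs.

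Of the 6 paralog ratios, 3 separated the groups at the smallest p this design allows (0.0286) and 0.0571 after Benjamini-Hochberg adjustment over the 6, so none passed the adjusted threshold. The third of these was *Slc25a25* over *Slc25a23*, at 13.4 ± 1.65 in mutant and 6.72 ± 0.439 in wild-type ECs. Separation of *Slc25a25* over *Slc25a24* followed from the opposite moves of these carriers and is not further evidence. That of *Slc25a12* over *Slc25a13* followed from the ranges of these carriers and is not further evidence either. The glutathione carriers *Slc25a39* and *Slc25a40* had a ratio of 24.5 ± 4.39 against 19.7 ± 3.49 (exact permutation p = 0.114), and the iron carriers *Slc25a28* and *Slc25a37* one of 2.14 ± 0.430 against 2.57 ± 0.125 (exact permutation p = 0.171).

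Carriers of cofactors and pyrimidine nucleotides fell or did not pass, with 4 of 9 lower and none higher, beside 22.9% of all genes lower and 21.5% higher, a comparison that was not tested. *Slc25a42*, which brings coenzyme A into the matrix, had 7.08, 8.87, 7.62 and 4.60 CPM in the mutant and 15.4, 16.0, 12.7 and 12.3 CPM in the wild-type libraries. The groups did not overlap, and the level was 2.01-fold lower (log2 fold change -1.01, SE 0.19, adjusted p = 0.00166). *Slc25a42* passed the test as each library was left out, but its log2 fold change no longer passed the limit of 1 without Mutant 1 (-0.99), Mutant 4 (-0.82), Wild type 1 (-0.94) or Wild type 2 (-0.94). *Slc25a33*, a pyrimidine nucleotide carrier, had 19.9, 24.6, 18.2 and 14.4 CPM in the mutant and 33.0, 31.7, 33.1 and 40.5 CPM in the wild-type libraries. Wild type 4 was the highest, the groups were apart, and the level was 1.80-fold lower (log2 fold change -0.85, SE 0.15, adjusted p = 0.00122). An antisense gene, *Gm13068*, shares 14.9% of the *Slc25a33* exon bases, and use of strand in counting is not stated, so reads of the pair cannot be told apart there. *Gm13068* held 374 counts in total against 6448 on *Slc25a33*. Other carriers also share exon bases with opposite-strand genes. Among them are *Slc25a11* (8.92%, *Rnf167*, 9221 counts), *Slc25a26* (3.00%, *Lrig1*, 11855 counts) and *Slc25a18* (1.67%, *Atp6v1e1*, 14721 counts).

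*Slc25a16*, whose substrate is less certain, was 1.25-fold lower (10.5 ± 0.722 against 13.2 ± 1.39 CPM, adjusted p = 0.033). The *Slc25a16* call was lost without a filter on low counts (adjusted p = 0.0772) and without Mutant 1 (0.0995), Mutant 3 (0.0670), Wild type 2 (0.0924) or Wild type 4 (0.0825). The carriers for NAD (*Slc25a51*, log2 fold change 0.14), S-adenosylmethionine (*Slc25a26*, -0.20), folate (*Slc25a32*, 0.02) and pyrimidine nucleotides (*Slc25a36*, -0.08) and the peroxisomal *Slc25a17* (-0.01) did not pass, with adjusted p between 0.246 and 0.958.

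The citrate carrier *Slc25a1*, which exports citrate for acetyl-CoA and lipid synthesis, had 34.9, 35.7, 32.9 and 30.2 CPM in the mutant and 62.6, 60.3, 42.5 and 48.8 CPM in the wild-type libraries. The wild types were spread more widely than the mutants without overlapping them, and the level was 1.60-fold lower (log2 fold change -0.68, SE 0.12, adjusted p = 0.00134). The dicarboxylate carrier *Slc25a10* (log2 fold change -0.23, adjusted p = 0.259) and the oxoglutarate/malate carrier *Slc25a11* (0.15, adjusted p = 0.308) did not pass. *Slc25a11* is the second carrier of the malate-aspartate shuttle. Among the uncoupling-protein-like carriers, the brain-enriched *Slc25a27* had 4.48, 4.36, 3.85 and 3.05 CPM in the mutant and 6.70, 6.05, 7.86 and 6.04 CPM in the wild-type libraries. Its groups were apart and it was 1.70-fold lower (log2 fold change -0.76, SE 0.16, adjusted p = 0.00365). Neuronal and oligodendrocyte markers were lower in the same libraries, and their part was not tested. *Slc25a14* had a log2 fold change of -0.35 (adjusted p = 0.107) and *Slc25a30* of 0.02 (adjusted p = 0.903).

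Carriers of iron, glutathione and acylcarnitines did not pass the test. *Slc25a28*, a mitoferrin that imports iron for heme and iron-sulfur clusters, had 26.7, 22.3, 20.5 and 25.0 CPM in the mutant and 24.6, 25.1, 27.7 and 28.8 CPM in the wild-type libraries (log2 fold change -0.17, SE 0.10, adjusted p = 0.198). *Slc25a37*, the mitoferrin of red cell precursors, had 39.5, 47.2, 47.2 and 43.5 CPM in the mutant and 36.7, 41.5, 43.3 and 43.0 CPM in the wild-type libraries (log2 fold change 0.11, SE 0.08, adjusted p = 0.312). The groups overlapped for both. *Slc25a39*, a glutathione importer, had 75.6, 67.4, 63.5 and 65.9 CPM in the mutant and 78.7, 72.4, 55.3 and 61.6 CPM in the wild-type libraries (log2 fold change 0.02, SE 0.11, adjusted p = 0.882). Its paralog *Slc25a40* had 7.42, 8.83, 8.89 and 9.15 CPM in the mutant and 9.81, 11.4, 8.77 and 11.8 CPM in the wild-type libraries (log2 fold change -0.28, SE 0.13, adjusted p = 0.101). Wild type 3 lay among the mutants for *Slc25a40*, and both groups overlapped for *Slc25a39*. *Slc25a20*, which carries acylcarnitines to beta-oxidation, had 69.9 ± 4.34 against 64.2 ± 3.08 CPM (log2 fold change 0.12, SE 0.07, adjusted p = 0.170). The outer membrane member *Slc25a46*, which takes part in mitochondrial dynamics, had 29.5 ± 3.84 against 26.4 ± 2.32 CPM (log2 fold change 0.16, adjusted p = 0.237). With SEs of 0.07 to 0.13 these carriers could have differed by small amounts that 4 pups per group do not show.

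The 6 carriers with little-known substrates included *Slc25a43*, which had the largest fold change of the 42 carriers, at a low level. *Slc25a43*, at chrX:36743659-36777202, had 44, 40, 35 and 33 counts in the mutant and 11, 1, 2 and 7 counts in the wild-type libraries, or 1.88, 1.49, 1.31 and 0.968 against 0.341, 0.0317, 0.0583 and 0.249 CPM. Every mutant exceeded every wild type, and the log2 fold change was 3.03 (SE 0.53, adjusted p = 0.00108), with a range of 2.69 to 3.66 as each library was left out. Among the libraries with low *Xist*, *Slc25a43* had 1.31 to 1.88 CPM in the mutants and 0.341 and 0.249 CPM in the wild types. The libraries with high *Xist* were the lowest of their groups, at 0.968 CPM in the mutant and 0.0317 and 0.0583 CPM in the wild types. The part of sex in this fold change was not tested. *Slc25a43* lies 18448 bases before *Slc25a5* on the same strand with no counted gene between them, and both rose.

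*Slc25a47*, a liver-enriched carrier, had 2.39, 2.46, 2.95 and 4.75 CPM in the mutant and 0.807, 0.887, 1.22 and 1.95 CPM in the wild-type libraries. The replicates of both groups varied widely but did not overlap (log2 fold change 1.38, SE 0.33, adjusted p = 0.00664). *Slc25a34* had 7.12, 7.45, 3.96 and 5.51 CPM in the mutant and 2.36, 2.28, 3.50 and 3.23 CPM in the wild-type libraries. Mutant 3 lay only a little above the highest wild type (log2 fold change 1.08, SE 0.23, adjusted p = 0.00378), and its log2 fold change was under the limit of 1 without Mutant 2 (0.96) or Wild type 2 (0.98). *Slc25a45* had 13.0, 14.9, 13.9 and 10.5 CPM in the mutant and 21.2, 21.1, 17.1 and 20.6 CPM in the wild-type libraries, all mutants below, and was 1.53-fold lower (log2 fold change -0.61, SE 0.12, adjusted p = 0.00262). *Slc25a35* (-0.30, adjusted p = 0.272) and *Slc25a53* (-0.25, adjusted p = 0.132) did not pass. *Rangrf*, on the opposite strand, shares 31.3% of the *Slc25a35* exon bases and held 11 counts in total.

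Genes that work beside the carriers were counted in 11 lists, and 38 of 107 tested rose and 23 fell, against 21.5% and 22.9% of all genes. The same shares of all genes stand beside each list below, and no list was tested against them. Of 5 relatives of the family under other symbols, *Ucp3* (40 counts in total) had too few counts to be tested and 4 passed, with *Ucp1* (log2 fold change 1.99, adjusted p = 0.004), the thermogenic uncoupling protein, and the outer membrane proteins *Mtch1* (0.82, adjusted p = 0.000274) and *Mtch2* (0.39, adjusted p = 0.00213) higher and *Ucp2* (-0.44, adjusted p = 0.00878) lower. *Ucp1* was low, at 2.13 ± 1.02 CPM in mutant and 0.540 ± 0.264 CPM in wild-type ECs. Of 12 genes for import of carriers through the outer membrane and TIM22, 6 rose and none fell, among them the small chaperone *Timm10* (0.70, adjusted p = 0.015), the outer membrane channel *Tomm40* (0.67, adjusted p = 0.000103) and the receptors *Tomm70a* (0.47, adjusted p = 0.000549) and *Tomm20* (0.42, adjusted p = 0.000341). Other mitochondrial transport genes gave 8 higher and 3 lower of 16, with the calcium uniporter *Mcu* (1.08, adjusted p = 2.69e-05) and the serine transporter *Sfxn1* (0.81, adjusted p = 0.000323) higher and the sideroflexins *Sfxn5* (-1.03, adjusted p = 0.000628) and *Sfxn4* (-0.85, adjusted p = 0.00553) lower.

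The next lists stand beside 21.5% of all genes higher and 22.9% lower, a comparison that was not tested. Enzymes on either side of the aspartate/glutamate carriers were higher in 5 of 10 cases and lower in none. They included *Aldh18a1* of proline synthesis (log2 fold change 0.55), the glutamate dehydrogenase *Glud1* (0.49) and the mitochondrial aspartate aminotransferase *Got2* (0.44), with adjusted p of 0.00251, 0.000552 and 0.000615. Folate and one-carbon enzymes gave 6 higher of 9 and none lower, led by *Mthfd2* (18.7 ± 3.71 against 7.22 ± 0.524 CPM, log2 fold change 1.38, adjusted p = 4.94e-05) and *Mthfd1l* (1.23, adjusted p = 5.78e-06), and followed by the serine hydroxymethyltransferases *Shmt1* (0.65, adjusted p = 0.00303) and *Shmt2* (0.57, adjusted p = 0.00116). The folate carrier *Slc25a32* itself had a log2 fold change of 0.02. Of 11 regulators of mitochondrial biogenesis 4 rose and none fell, with *Myc* (1.20, adjusted p = 5.71e-05), the coactivator *Pprc1* (0.71, adjusted p = 0.000196) and the mitochondrial DNA factors *Tfam* (0.70, adjusted p = 0.000591) and *Tfb2m* (0.23, adjusted p = 0.0484).

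Lists for coenzymes and for heme held more genes that fell than genes that rose. Of all genes, 22.9% fell and 21.5% rose, and the lists were not tested against these shares. Of 11 coenzyme A, NAD and thiamine genes 7 fell and 1 rose. *Nampt*, the salvage enzyme of NAD synthesis, had 242 ± 71.4 CPM in mutant and 795 ± 57.7 CPM in wild-type ECs (log2 fold change -1.72, adjusted p = 6.28e-05). The thiamine transporter *Slc19a3* was lower (-1.68, adjusted p = 0.000661), while a second thiamine transporter, *Slc19a2*, was higher (1.13, adjusted p = 0.00138).

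Of 11 heme and iron-sulfur genes 6 fell and none rose, beside 22.9% and 21.5% of all genes. The transferrin receptor *Tfrc*, which marks brain ECs and red cell precursors, had 359 ± 233 against 2414 ± 216 CPM (log2 fold change -2.75, adjusted p = 0.000397), and the heme enzymes *Ppox* (-0.83, adjusted p = 6.03e-05) and *Alas1* (-0.61, adjusted p = 0.000439) and the transporter *Abcb10* (-0.55, adjusted p = 0.000458) were lower. The red blood cell markers listed above moved the same way, and their part was not tested.

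Citrate and acetyl-CoA enzymes gave 1 higher and 3 lower of 8, with citrate synthase *Cs* higher (0.31, adjusted p = 0.00438) and *Acss2* (-0.82, adjusted p = 0.00979), *Acaca* (-0.33, adjusted p = 0.0313) and *Idh1* (-0.28, adjusted p = 0.0195) lower. Carnitine and fatty acid entry enzymes gave 2 higher and 2 lower of 9. *Cpt1a*, which makes the acylcarnitines that *Slc25a20* imports, was lower (189 ± 13.7 against 298 ± 25.2 CPM, log2 fold change -0.66, adjusted p = 0.000173), as was the acyl-CoA dehydrogenase *Acadm* (-0.38, adjusted p = 0.00319), while *Acadl* (0.35, adjusted p = 0.00597) and *Cpt1c* (0.48, adjusted p = 0.0488) were higher. Glutathione genes gave 2 higher and 1 lower of 6, with *Gss* (0.51, adjusted p = 0.00198) and *Gsr* (0.47, adjusted p = 0.0345) higher and *Gpx4* (-0.35, adjusted p = 0.00916) lower.

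**Figure D5:**
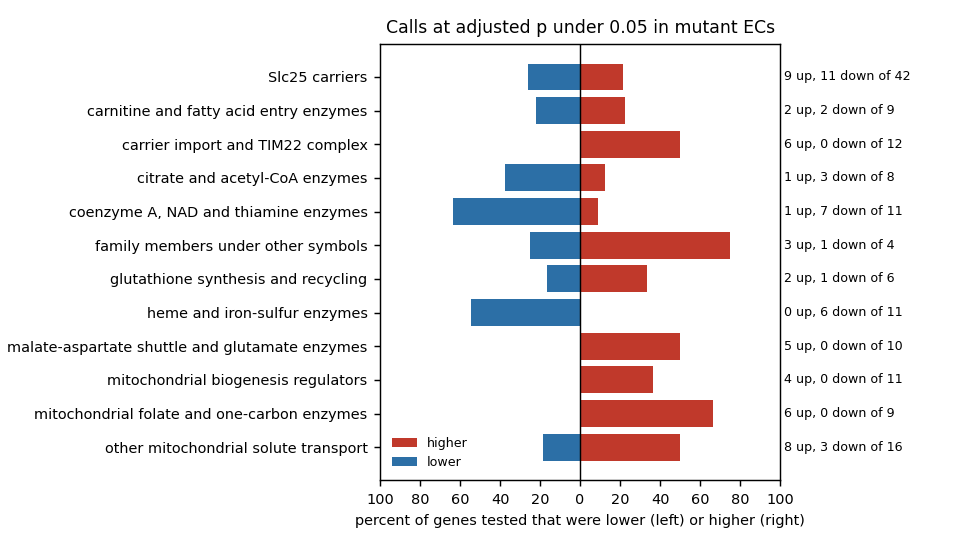
Percent of the genes tested that were higher (right) or lower (left) in mutant ECs at an adjusted p under 0.05, for the 42 carriers and 11 lists of genes that work beside them, with the numbers at the right. The import list (6 higher, 0 lower of 12) and the folate list (6 higher, 0 lower of 9) hold no gene that fell, and the heme and iron-sulfur list (0 higher, 6 lower of 11) holds none that rose. Of all genes tested, 21.5% were higher and 22.9% lower.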

How the data were processed

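RNA of brain ECs was measured in 4 mutant and 4 wild-type pups, 1 library per pup. The p-values therefore set the group difference against the spread between pups. After trimming (Trimmomatic) and mapping to GRCm38 (STAR), the authors deposited raw counts per gene. They also deposited a normalized signal for 16889 genes, counts divided by 1 DESeq2 size factor per library. Multiplied back, each value gave a whole number of reads within 0.01. The counting program, annotation release, strand use and treatment of reads mapping to several places are not given in the sources used here. Per the labels, poly(A) RNA was enriched before library preparation.

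Of 49315 identifiers, 48970 had a symbol. Counts were tested in R 4.3.3 with edgeR 4.0.16 (TMM, filterByExpr minimum count 10, glmQLFit, glmQLFTest, no covariate), with Benjamini-Hochberg adjustment over 16887 genes. CPM used TMM library sizes, and TPM used the exon lengths of the count files and no TMM factor. Single ratios were tested by two-sided exact permutation. Libraries held 24833373 to 34196955 counts. Counting error weighs most for carriers with few counts, and it was not compared with the spread of pups for each carrier.

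Values in every library were given for carriers with adjusted p under 0.05 and absolute log2 fold change over 0.5, the 3 of highest TPM, and the paralog pairs. From each list at most the 4 largest changes past the test were named. The values of 1 carrier and of some other genes are not reported here, although they enter the counts. The carriers and gene lists were chosen with earlier results of these data known. The alternatives were DESeq2 1.42.0, median-of-ratios or library size alone for normalization, other filters and fold limits, the replicate number or label prefix as a block, and each library left out. The methods state that wild-type pups were matched to mutants by litter, without saying which libraries shared one. The label prefixes have a layout that litters could give, but the labels do not define them, so the prefix stayed an alternative.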

Additional observations from a re-analysis of the deposited data

Results flagged for a closer look

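Within groups of 4 libraries, 42 groups (the mutant and the wild-type libraries of each of the 21 carriers given by library) were checked for a single library far from the others, a check that chance alone meets in about 1 in 20 groups. It was met in 2. *Slc25a33* had 40.5 CPM in Wild type 4, with the other wild types at 31.7 to 33.1 CPM. *Slc25a45* had 17.1 CPM in Wild type 3, with the other wild types at 20.6 to 21.2 CPM. Both carriers were lower in the mutant libraries with or without that library, with log2 fold changes across all leave-outs of -0.98 to -0.70 for *Slc25a33* and -0.68 to -0.50 for *Slc25a45*.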

How the results depend on the processing

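The number of carriers that rose was 9 under every alternative run, and the number that fell was 10 to 12, or 8 to 12 as each library was left out. Past the fold limit, the count of lower carriers went from 2 to 1 with DESeq2, with median-of-ratios factors and without a filter, to 7 at an absolute log2 fold change over 0.5, and to between 1 and 3 as each library was left out, where *Slc25a42* lies at the limit and *Slc25a2* passed both limits without Mutant 2. The higher count there was 3 to 6. Log2 fold changes changed sign in 21 cases, all near 0 and none past the test. *Slc25a17* went to 0.015 with DESeq2, 0.015 with median-of-ratios factors and 0.00025 without a filter. With library size alone *Slc25a32* went to -0.031, *Slc25a39* to -0.031 and *Slc25a30* to -0.033. As libraries were left out, *Slc25a17* ranged from -0.024 to 0.066, *Slc25a22* from -0.13 to 0.047, *Slc25a44* from -0.092 to 0.034, *Slc25a39* from -0.055 to 0.13, *Slc25a30* from -0.038 to 0.13 and *Slc25a32* from -0.048 to 0.082. *Slc25a2* passed with library size alone (adjusted p = 0.0467), a block for label prefix (0.0375) and without Mutant 2 (0.0295), and *Slc25a40* without Wild type 3 (0.0476).

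With the replicate number as a block, 9 carriers rose and 11 fell, 4 and 2 past the fold limit, and no carrier changed its call. Deviations of same-numbered libraries correlated at 0.201, 0.210, 0.290 and 0.0241, and Mutant 4 correlated best with Wild type 3 (0.384). Of these 4 correlations, 3 were over 0.1. Litters were matched in the study, and libraries of the same number share a label prefix, but whether a number marks littermates is not stated. With the prefix as a block, 9 rose and 12 fell, 4 and 3 past the fold limit. Carriers with few counts in total, such as *Slc25a43* (173) and *Slc25a2* (92), have the least depth behind them.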
